A study of Mus musculus with 10 samples.

Results

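The genes described are those that encode proteasome subunits and their helpers (Psma to Psmg), ubiquitin-conjugating enzymes (Ube2) and ubiquitin-specific proteases (Usp). They were chosen by gene symbol alone, as the rows of the rate table whose names begin with Psma to Psmg and a digit, with Ube2, or with Usp and a digit. The rule found 101 of 8590 genes: 37 proteasome genes, 23 Ube2 genes and 41 Usp genes. It also took in 2 genes whose symbols resemble the families: Psmc3ip, a meiotic recombination factor named for its binding to Psmc3, and Usp6nl, a GTPase-activating protein for Rab proteins. Both are kept in the counts and named where they appear.

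The proteasome is the protease complex that degrades proteins tagged with ubiquitin. A 20S barrel of alpha and beta rings holds the proteolytic sites, and a 19S cap of ATPase and non-ATPase subunits binds, unfolds and feeds in the substrate. Ube2 enzymes carry activated ubiquitin, or a ubiquitin-like protein, to the substrate together with a ligase, and Usp enzymes take ubiquitin off again. In neurons this pathway is known for its part in synaptic protein turnover.

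The series compared RNA metabolism between wild-type and Fmr1-knockout cortical neurons from mouse. Fmr1 encodes FMRP, the RNA-binding protein lost in fragile X syndrome, and both genotypes carried the strain label FVB.129P2-Pde6b+ Tyrc-ch/AntJ. Cortices came from embryos of day 18, neurons were used after 14 days in vitro, and new RNA took up 5-ethynyluridine (5-EU, 200 µM), a clickable form of uridine, for 20 or 60 min before pull-down. Each genotype had 2 labelled libraries (1 of 20 min and 1 of 60 min), 2 inputs and 1 unlabelled pull-down, which makes 10 samples in 6 groups, and only the 4 labelled libraries have rates of their own. The labels do not say whether libraries came from separate cultures or embryos. The p-values therefore rest on the spread between the 2 labelling times of a genotype, moderated over all genes by limma. Rates are in the units of the deposited table, whose time base is not given in the sources used here, and a culture-wide rate cannot tell a change per cell from a change in the share of cells.

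As a check of the labels, Fmr1 itself had a degradation rate in wild type of 0.0774 at 20 min and 0.0672 at 60 min, and in the knockout of 2.58 and 2.66, while its synthesis rate was not lower in the knockout (2.06 and 1.56, against 0.810 and 0.692). Over all genes, fewer degradation rates were listed in the knockout (6381 at 20 min and 6165 at 60 min) than in wild type (7938 and 7969). Of the marker genes looked for, 4 of 12 neuronal, 4 of 7 astrocyte, 5 of 8 oligodendrocyte-lineage, 0 of 7 microglial and 0 of 5 endothelial genes had a row in the table. Degradation rates were listed in both wild-type and neither knockout library for 1 neuronal gene (Gad2), 1 astrocyte gene (Aqp4) and 3 oligodendrocyte-lineage genes (Sox10, Pdgfra and Cspg4), against 19.5% of all genes with both wild-type rates. Sox9 (astrocyte) had rates in the knockout only, and Nefl (neuron) in neither. The 2 neuronal genes with all 4 rates both had a log2 change of 1.70, which passed for Slc17a6 (adjusted p = 0.0457 by limma) and not for Rbfox3 (0.0781). The glial genes with all 4 rates had changes of 0.57 (Aldh1l1, astrocyte, adjusted p = 0.471) and -0.37 (Olig2, oligodendrocyte lineage, 0.549). The part of other cell types in the results below was not tested. Read depth is unknown, since the table holds rates and not counts.

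In wild-type neurons the 3 gene groups differed more in how fast their RNAs were made than in how fast they decayed. The median synthesis rate was 1.98 at 20 min and 1.92 at 60 min for 35 proteasome genes, 1.51 and 1.70 for 23 Ube2 genes, and 0.886 and 0.873 for 41 Usp genes, against 1.06 and 1.02 over all genes. Median degradation rates lay closer together, at 0.0973 and 0.104 for the proteasome, 0.121 and 0.108 for Ube2, and 0.0979 and 0.127 for Usp, with 0.111 at both times over all genes. The ratio of synthesis to degradation rate, which at steady state is the level of processed RNA, had a median of 20.7 for proteasome genes, 13.6 for Ube2 and 8.97 for Usp at 20 min, against 8.43 over all genes. These are descriptions of the groups, with no test between them.

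Among proteasome genes, synthesis was highest for Psma2, a subunit of the alpha ring (mean 3.84 ± 0.681, SD, n = 2), and Psmb1, of the beta ring (3.71 ± 0.802, SD, n = 2). It was lowest for Psmc3ip (0.526 ± 0.0750, SD, n = 2) and for Psme4, the PA200 activator (0.660 ± 0.254, SD, n = 2). The 2 highest synthesis rates differed by less than their spread. The mean wild-type degradation rate was highest for Psmg3, an assembly chaperone, at 0.382 and 0.481 at 20 and 60 min, followed by Psmd9, a chaperone of the 19S base, at 0.295 and 0.281. Psmd3 and Psmd13, non-ATPase subunits of the 19S lid, had the lowest means, at 0.0575 and 0.0306 for Psmd3 and at 0.0567 and 0.0292 for Psmd13, although at 20 min alone Psmc6 lay lower (0.0547). The 4 assembly chaperones Psmg1 to Psmg4 had a median processed level of 3.62, below the 25.7 of the 6 beta-ring genes with wild-type rates.

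Among Ube2 genes, Ube2l3, an enzyme that serves RING-between-RING ligases, had the highest wild-type mean synthesis rate (4.17 and 3.86 at 20 and 60 min), although Ube2b, a Rad6 homologue, had 4.22 at 20 min. Ube2h followed at 2.59 and 3.35, and the lowest mean rates were those of Ube2v2, a variant without the catalytic cysteine (0.714 and 0.638), and Ube2s, which extends chains with the anaphase-promoting complex (0.622 and 0.802). Mean degradation was highest for Ube2g2, an enzyme of endoplasmic reticulum quality control (0.160 and 0.257), and Ube2v2 (0.214 and 0.191), and lowest for Ube2a, the other Rad6 homologue (0.0493 and 0.0817), and Ube2s (0.0695 and 0.0896). Within each of these pairs the values of the 2 genes overlapped, except that both values of Ube2l3 lay above those of Ube2h.

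Among Usp genes, Usp46, a deubiquitinase that works with WDR48, had the highest wild-type mean synthesis rate (2.35 and 4.03), followed by Usp38 (2.36 and 3.12), and Usp28 (0.321 and 0.297) and Usp29 (0.377 and 0.275) had the lowest means. Usp46 also had the highest wild-type mean processing rate of its group, 23.7 and 40.7, against 2.88 and 2.67 for Usp28, the lowest mean. The mean degradation rate was highest for Usp53 (0.382 and 0.414), and Usp42 (0.159 and 0.551). It was lowest for Usp20 (0.0559 and 0.0212) and Usp33 (0.0490 and 0.0354), paralogues that remove ubiquitin from receptors, although at 60 min alone Usp11 lay lower (0.0134). Usp42 differed more between its labelling times than its mean did from that of Usp53.

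**Figure D1:**
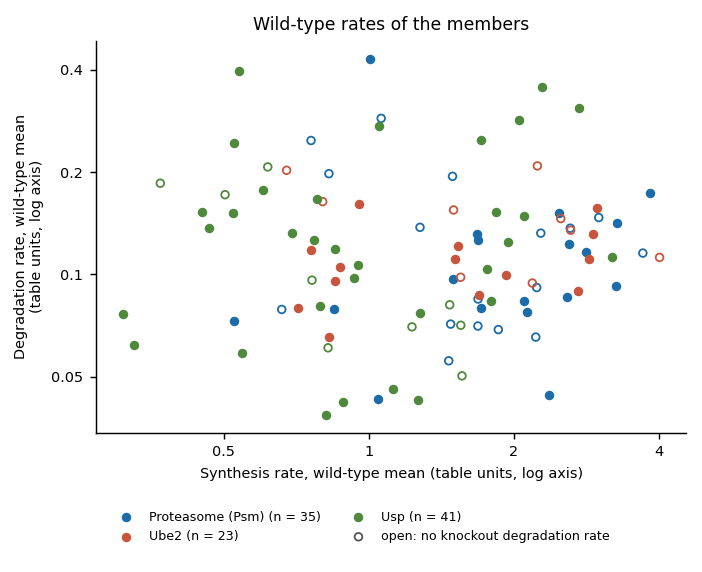
Wild-type synthesis rate (x axis) against degradation rate (y axis), both as means of the 20 and 60 min libraries in table units on log axes, for 35 proteasome, 23 Ube2 and 41 Usp genes. Open symbols mark members with no degradation rate in either knockout library, and these lie among the filled ones in each group.

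The 3 groups also differ in transcript structure. By GENCODE M21, with 101 of 101 members matched, the median coding length was 816 bases for proteasome genes, 522 for Ube2 and 2889 for Usp, against 1458 over the genes of the table. The median 3′ UTR was 270 bases for proteasome genes, 1482 for Ube2 and 1752 for Usp, against 1104. The pentamer ATTTA, the core of AU-rich elements that recruit decay factors, occurred on the sense strand of the 3′ UTR in 12 of 37 proteasome genes (32.4%), 19 of 23 Ube2 genes (82.6%) and 33 of 41 Usp genes (80.5%), against 68.2% of all genes. The longer nonamer TTATTTATT, which contains ATTTA, was found in 1 proteasome gene, 1 Ube2 gene and 7 Usp genes (2.70%, 4.35% and 17.1%, against 7.91% of all genes). A match is a description of the sequence, not of a bound site.

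The windows that hold the nonamer, in capitals, are printed 5′ to 3′ for the proteasome gene, for the Ube2 gene, and for the Usp genes with the lowest and the highest knockout 60 min degradation rate among those with the nonamer. Each is 30 bases long and comes from the GENCODE M21 transcript. Usp31 and Usp53 each have 3 such windows, of which the first is shown.
Psmb1: ctggatatatTTATTTATTttgagatttac
Ube2j2: tttttaagatTTATTTATTttattatatgt
Usp31: catatcctctTTATTTATTtattttttagt
Usp53: tggtagtataTTATTTATTaaattattttc

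Of the 7 Usp genes with this nonamer, 5 had rates in all 4 libraries, and the deposited knockout rate of 4 of them (Usp12, Usp13, Usp31 and Usp32) lay lower at both labelling times, with a median log2 change of -0.76 over the 5. Among the Usp genes without it, 4 of 26 lay lower at both times and the median change was 1.18. Over all genes the medians were 0.32 with the nonamer (478 genes) and 0.68 without (5077 genes). Of these, 169 of the 478 and 1286 of the 5077 lay lower at both times. The difference was noticed in these data and was not tested, and 0 of the 5 changes passed in the fit without the block. With the knockout rates recomputed over the level difference, as described below, the 5 changes ran from -0.48 (Usp13) to -0.07 (Usp31). Psmb1, of the beta ring, had wild-type degradation rates of 0.0978 and 0.133 at 20 and 60 min and none in the knockout. Ube2j2, an enzyme of the endoplasmic reticulum membrane, had 0.164 and 0.157 in wild type but 0.300 and 0.258 in the knockout. Usp31 had 0.0979 and 0.151, against 0.0160 and 0.0560. Usp53 had 0.382 and 0.414 in wild type but 0.257 and 0.710 in the knockout, so that its knockout values lay on both sides of the wild-type ones. Over the genes with rates in all 4 libraries, the Spearman rho of the degradation change with 3′ UTR length was -0.35 in 13 proteasome, -0.29 in 13 Ube2 and -0.48 in 31 Usp genes, against -0.20 over 5555 genes. With the number of ATTTA pentamers it was -0.18, -0.09 and -0.53, against -0.25. With transcript GC content it was 0.62, 0.09 and 0.43, against 0.31. These are descriptions with no test between the groups, across genes that share the same 4 libraries.

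Proteasome genes are known targets of NFE2L1 and its relative NFE2L2, which bind antioxidant response elements. The motif TGACNNNGC, or GCNNNGTCA on the other strand, was searched from 250 bases before to 50 bases after the start that the RefSeq promoter table uses (GRCm38.p6), which for Psmb6 lies downstream of the outermost annotated start of the gene. It occurred in 6 of 30 proteasome genes with a promoter entry (20.0%), in 4 of 18 Ube2 genes (22.2%) and in 7 of 33 Usp genes (21.2%), against 17.1% of 6677 genes. The windows below, with the motif in capitals, are shown because they belong to beta-ring genes that carry catalytic sites. The Psmb5 window is at chr14:54618023-54618052 on the minus strand, with the motif beginning 47 bases before that start. The Psmb6 window is at chr11:70525338-70525367 on the plus strand and spans the start, with the motif beginning 9 bases before it.
Psmb5: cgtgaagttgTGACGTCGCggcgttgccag
Psmb6: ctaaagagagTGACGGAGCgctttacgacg

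Synthesis rates of these genes in wild type were 1.97 and 1.40 at 20 and 60 min for Psmb5 and 1.79 and 1.93 for Psmb6. In the knockout Psmb5 had 1.70 and 1.35, within reach of its wild-type values, and Psmb6 had no listed rate. Nfe2l1 was not analysed here. For Nfe2l2 the degradation rate was 0.174 and 0.113 in wild type, against 0.276 and 0.269 without Fmr1 (log2 change 0.96, SE 0.376, adjusted p = 0.129 by limma).

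Whether a rate was listed at all differed between the groups. A degradation rate above 0 was listed at 20 and 60 min for 35 and 35 of 37 proteasome genes in wild type but for 18 and 15 in the knockout. For Ube2 it was 23 and 23 of 23 against 14 and 13 in the knockout, and for Usp 41 and 41 of 41 against 32 and 31. Members with rates in both wild-type libraries and in neither knockout library numbered 17 of 35 proteasome genes (48.6%), 9 of 23 Ube2 genes (39.1%) and 9 of 41 Usp genes (22.0%), against a background of 19.5% of all genes with both wild-type rates. The Usp share was near the background. The reverse pattern, with rates in both knockout libraries and in neither wild-type library, occurred in 0 members, against 2.84% of the 5913 genes with both knockout rates. What decides whether the table lists a rate is not stated, so a missing value is not read as a low or a high rate.

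**Figure D2:**
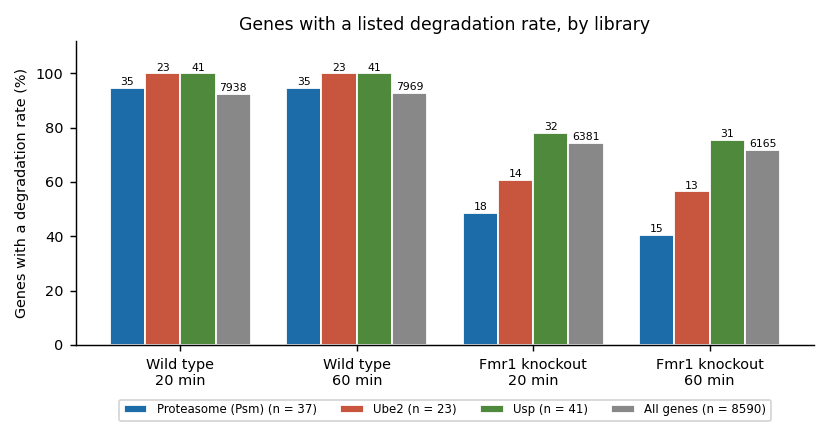
Percentage of genes with a degradation rate above 0 in each of the 4 labelled libraries (y axis, from 0), with the number of genes above each bar, for 37 proteasome, 23 Ube2 and 41 Usp genes and all 8590 genes. The proteasome bars stand for 35 genes in either wild-type library and for 18 and 15 in the knockout libraries.

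Within the proteasome the missing rates were spread over the complex. Degradation rates were listed in both wild-type libraries only for 4 of 6 beta-ring genes (Psmb1, Psmb2, Psmb3 and Psmb6), 3 of 6 alpha-ring genes (Psma5, Psma6 and Psma7), 2 of 5 genes counted with the 19S ATPases (Psmc3 and Psmc4, Psmc3ip being among the 5) and 4 of 11 non-ATPase genes (Psmd7, Psmd8, Psmd9 and Psmd14). The same held for the activator Psme4, for Psmf1, the proteasome inhibitor PI31, and for the chaperones Psmg1 and Psmg4. Psma6 still had a knockout synthesis rate at 60 min (2.84). Psmd14, the subunit that cuts ubiquitin off the substrate, had wild-type degradation rates of 0.0675 and 0.0753. Psmb10, an immunoproteasome subunit (0.547), and Psme1, of the 11S activator (0.113), had a degradation rate only in the knockout 20 min library. Psmb8, Psmb9, Psmc1, Psmc5, Psmd4 and Psme2 were not analysed here.

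The Ube2 genes without knockout degradation rates were Ube2c, Ube2d2a, Ube2g2, Ube2j1, Ube2l3, Ube2n, Ube2r2, Ube2v2 and Ube2w. Ube2n, the enzyme that builds ubiquitin chains used in signalling, and Ube2v2, one of its partners, are both among them, whereas Ube2v1, the other partner, had all 4 rates. The Usp genes were Usp4, Usp7, Usp9x, Usp14, Usp15, Usp16, Usp24, Usp37 and Usp54, of which Usp15 had a knockout synthesis rate at 60 min (0.795). They include Usp14, which sits on the proteasome (0.0741 and 0.0675 in wild type), Usp7, which acts on Mdm2 and p53 (0.0863 and 0.0764), and Usp9x (0.0529 and 0.0477). By medians, the members without knockout degradation rates did not have the lower wild-type levels in Ube2 and Usp. Single members did: Ube2v2, without knockout rates, had the lowest level of the Ube2 genes (3.34 at 20 min). At 20 min the median wild-type level of processed RNA was 19.9 for proteasome genes without knockout rates and 22.2 for those with all 4 rates, 15.8 and 13.6 for Ube2, and 13.6 and 8.97 for Usp. Over all genes the order was the other way, 6.27 without and 9.35 with. A single knockout degradation rate beside both wild-type rates was listed for 7 members (Psma1, Psmc2, Psmd1, Psmd12, Psmg3, Ube2s and Usp45), and it lay below both wild-type values in 7 of 7, against 84% of the 652 such genes.

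Degradation rates could be compared in 13 proteasome, 13 Ube2 and 31 Usp genes, the members with a rate in all 4 libraries. By limma on log2 rates, adjusted over 5716 genes, the rate rose in 3 proteasome genes (Psmb5, Psmg2 and the non-proteasome gene Psmc3ip), 1 Ube2 gene (Ube2v1) and 8 Usp genes (Usp8, Usp10, Usp19, Usp21, Usp28, Usp35, Usp39 and Usp49), and it fell in 1 gene, Psmd11. That is 30.8%, 7.69% and 25.8% of the groups called in either direction, against a background of 23.1%, with 20.5% of all genes higher and 2.57% lower. The shares of the members thus lay on both sides of the background. The median log2 change over the genes tested was 1.15, 0.59 and 0.76 for proteasome, Ube2 and Usp genes, against 0.65 over all genes. The proteasome value depends on which genes and libraries enter: it was 0.61 to 0.91 when 1 library was left out. In the authors' deposited table, which also holds some genes with a single knockout rate, it was 0.12 over 17 proteasome genes, 6 of them called higher and 5 lower, against 36.3% of all genes called there (29.2% higher and 7.09% lower). Taken at 20 and 60 min apart, it was 0.93 and 0.89, 0.39 and 0.38, and 0.83 and 0.78, against 0.73 and 0.58. The 13 calls rest on the deposited knockout rates and on the scaling between libraries: centring each library on its median left 1 of them (Psmd11), with 1.61% of all genes called, and none was called with knockout rates recomputed as described below. Without the wild-type 60 min, the knockout 60 min or the knockout 20 min library, 0 of the 13 were called, against 0.0175%, 2.26% and 2.62% of all genes.

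**Figure D3:**
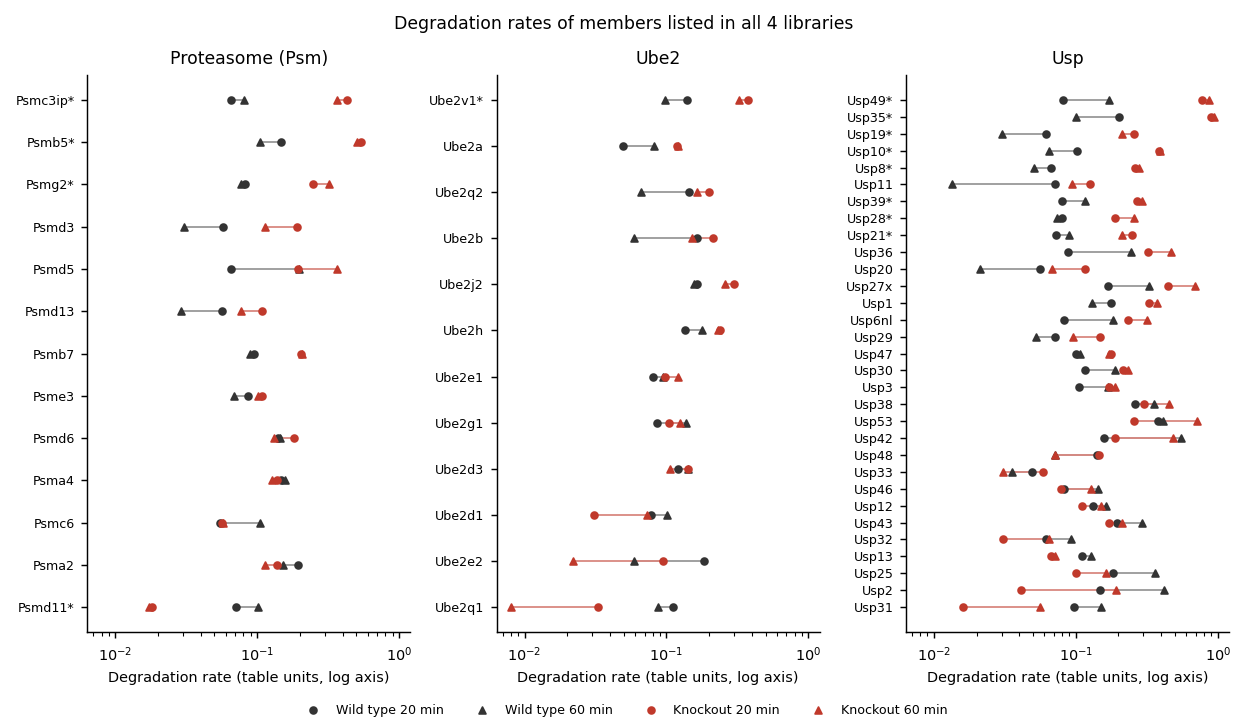
Degradation rate in table units on a log axis (x) for the members with a rate in all 4 libraries, except 1 not reported here, by group, with wild type in dark grey and knockout in red, circles for 20 min and triangles for 60 min. Genes are ordered by log2 change from the largest rise at the top, and an asterisk marks the 13 genes with a limma adjusted p under 0.05, Psmd11 being the single one with both red symbols on the left.

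Psmb5 (chromosome 14, 54614120 to 54617995, GRCm38) encodes the beta subunit with chymotrypsin-like activity, the site hit by bortezomib. In wild type its RNA decayed at 0.147 (20 min) and 0.105 (60 min), while the knockout values were 0.538 and 0.501. Both knockout values lay above both wild-type values, with a log2 change of 2.06 (SE 0.354, adjusted p = 0.0286 by limma). Psmb7, the beta subunit with trypsin-like activity, had 0.0952 and 0.0892 in wild type but 0.203 and 0.205 in the knockout, also without overlap, but with a log2 change of 1.15 (SE 0.313) it did not pass (adjusted p = 0.0638 by limma). With labelling time as a block it did (adjusted p = 0.0340), but with block and centring together it did not (0.398). In the authors' deposited limma table it passed (log2 change 1.14, adjusted p = 0.0470). In the alpha ring, Psma2 (wild type 0.195 and 0.151, knockout 0.137 and 0.113) and Psma4 (0.147 and 0.156, against 0.137 and 0.127) had changes of -0.46 and -0.20, neither of which passed. With block and centring together both were called lower (-1.32 and -1.06, adjusted p = 0.0366 and 0.0496), in a fit where 22.4% of all genes were.

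In the 19S cap, 1 of the 5 non-ATPase genes tested was called, and it fell, while the other 4 had positive changes that did not pass. Psmd11 (chromosome 11, 80428615 to 80473248), a scaffold of the lid, had a degradation rate of 0.0709 and 0.101 in wild type that stood at 0.0180 and 0.0172 in the knockout. It fell by 2.26 on the log2 scale (SE 0.357, limma adjusted p = 0.0260). Psmd3, another lid subunit, had 0.0575 and 0.0306 against 0.190 and 0.114, a change of 1.81 (SE 0.504, adjusted p = 0.0663, and 0.0158 with the block). Psmd13, also of the lid, had 0.0567 and 0.0292 against 0.108 and 0.0763, without overlap (change 1.16, SE 0.480, adjusted p = 0.142, and 0.0392 with the block). Psmd5, an assembly chaperone of the 19S base, had 0.0649 and 0.197 against 0.195 and 0.367, where the genotypes overlapped (change 1.24, SE 0.699, adjusted p = 0.245, and 0.0411 with the block). With block and centring together none of these 3 passed, at 0.0608 for Psmd3, 0.432 for Psmd13 and 0.354 for Psmd5. Psmd6 and Psmc6, an ATPase, overlapped between genotypes: Psmc6 had 0.0547 and 0.104 in wild type, with 0.0567 and 0.0576 in the knockout. Psmc2, Psmd1 and Psmd12 had a single knockout rate each, of 0.0164, 0.0127 and 0.0162, below their wild-type values. They could not be tested in the fit over 4 libraries. The authors' deposited limma table lists log2 changes of -2.59, -3.30 and -2.66 for them, with adjusted p-values of 0.0167, 0.0114 and 0.0229. That deposited limma table also calls Psmd3 (1.81, adjusted p = 0.0169) and Psmd13 (1.17, adjusted p = 0.0459) higher, but not Psmd5 (1.24, adjusted p = 0.161).

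Of the helpers, Psmg2 (chromosome 18, 67641587 to 67654181), the PAC2 chaperone of alpha-ring assembly, had 0.0817 and 0.0768 in wild type, then 0.248 and 0.321 in the knockout. It rose by 1.83 on the log2 scale (SE 0.337, limma adjusted p = 0.0312). Psmg3, another assembly chaperone, had a single knockout rate, 0.120 at 20 min, below both wild-type values. The authors' deposited limma table lists a log2 change of -1.94 for Psmg3 (adjusted p = 0.0308). Psme3, the nuclear activator REG gamma, had 0.0867 and 0.0688 against 0.109 and 0.102, a change of 0.45 that did not pass. Psmc3ip (chromosome 11, 101092141 to 101095435) had the largest rise among the genes matched by the proteasome rule, from 0.0655 and 0.0802 to 0.430 and 0.367. Its log2 change of 2.45 (SE 0.335, adjusted p = 0.0235 by limma) belongs to no proteasome component, and without it 2 proteasome genes rose.

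Among Ube2 genes, Ube2v1 (chromosome 2, 167607639 to 167632020), the catalytically inactive partner of Ube2n, was the single call. Its degradation rate was 0.139 and 0.0976 in wild type but 0.374 and 0.322 in the knockout, a rise of 1.58 on the log2 scale (SE 0.363, adjusted p = 0.0469 by limma). Ube2a, a Rad6 homologue, had 0.0493 and 0.0817 against 0.119 and 0.121. Both of its knockout values lay above both wild-type values, but its change of 0.91 (SE 0.398, adjusted p = 0.155 by limma) did not pass.

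The largest negative values in the group belonged to Ube2q1, with 0.111 and 0.0877 in wild type but 0.0327 and 0.00807 in the knockout. The change of -2.61 had a wide error (SE 0.761, adjusted p = 0.0731 by limma), and it passed with the block (adjusted p = 0.0225). The authors' deposited limma table lists a smaller change that passed (-1.73, adjusted p = 0.0450). Ube2e2 followed with 0.184 and 0.0591 against 0.0942 and 0.0219, a change of -1.20 that passed with the block (adjusted p = 0.0366). Of the Ube2d enzymes, which work with many ligases, Ube2d3 had 0.121 and 0.141 against 0.141 and 0.106, and Ube2d1 had 0.0781 and 0.101 against 0.0309 and 0.0723 (change -0.91, adjusted p = 0.262), and neither passed. Ube2d1 was called lower with block and centring together (-1.77, adjusted p = 0.0378), as were Ube2q1 and Ube2e2 (0.0299 for both). Close paralogues such as the Ube2d enzymes, Ube2e1 and Ube2e2, or Usp12 and Usp46, may share reads, and how the authors counted such reads is not given in the sources used here.

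In the Usp group, 8 of 31 genes tested rose and 0 fell. Usp49 (chromosome 17, 47630690 to 47686739), a histone H2B deubiquitinase, had a degradation rate of 0.0812 and 0.171 in wild type but 0.771 and 0.874 in the knockout, the largest rise of the members tested (log2 change 2.80, SE 0.483, adjusted p = 0.0286 by limma). Usp35 (chromosome 7, 97309403 to 97332308) had 0.203 and 0.100 against 0.900 and 0.944, a change of 2.69 (SE 0.465, adjusted p = 0.0286). Usp19 (chromosome 9, 108490607 to 108502337), which has a form anchored in the endoplasmic reticulum, had 0.0615 and 0.0304 against 0.256 and 0.212, a change of 2.43 (SE 0.473, adjusted p = 0.0347). In these 3 genes both knockout values lay above both wild-type values.

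Usp10 (chromosome 8, 119910360 to 119957560), a partner of the stress granule protein G3BP1, had 0.102 and 0.0650 in wild type but 0.385 and 0.390 in the knockout (log2 change 2.25, SE 0.382, adjusted p = 0.0285 by limma). Usp8 (chromosome 2, 126707201 to 126759314), which acts in endosomal sorting, had 0.0668 and 0.0504 against 0.261 and 0.280 (change 2.22, SE 0.342, adjusted p = 0.0249). The remaining 3 rose by less. Usp39, a splicing factor without protease activity, changed by 1.55 (adjusted p = 0.0479), Usp28, which stabilizes Myc, by 1.53 (0.0453) and Usp21 by 1.51 (0.0445). Both knockout values lay above both wild-type values in 18 of 31 Usp genes (58.1%), against a background of 52.6%. They lay below in 3 (9.68%), against 16.5%. The corresponding counts were 7 above and 3 below of 13 for the proteasome, and 7 and 2 of 13 for Ube2.

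The Usp genes with the most negative changes in the fit over 4 libraries did not pass. Usp31 changed by -2.02 (SE 0.720, adjusted p = 0.106 by limma), and Usp2, which cycles with the circadian clock in many tissues, had 0.148 and 0.422 in wild type but 0.0408 and 0.194 in the knockout (change -1.49, adjusted p = 0.301). Both passed with labelling time as a block, at 0.0242 and 0.0292. Usp45 had a single knockout rate, 0.0174 at 20 min, against 0.190 and 0.164 in wild type, and could not be tested in that fit; the authors' deposited table lists a log2 change of -3.48 with an adjusted p of 0.00860. Usp46 lay close to wild type, with 0.0831 and 0.142 against 0.0785 and 0.127. With the block, 7 proteasome genes were called higher and 1 lower, 1 Ube2 gene higher and 2 lower, and 13 Usp genes higher and 3 lower, against a background of 48% (38.2% higher and 9.76% lower), and the 13 genes called without the block were among them. With the block and centring together, 2 proteasome genes were called higher and 3 lower, 0 Ube2 genes higher and 3 lower, and 5 Usp genes higher and 6 lower, against 36.2% (13.9% higher and 22.4% lower).

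**Figure D4:**
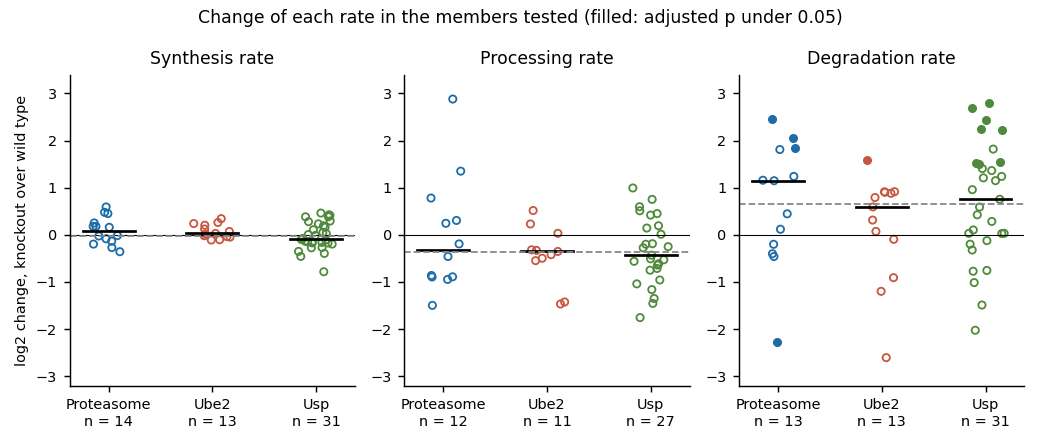
log2 change of knockout over wild type for each member tested (points, y axis), by rate and by group, with the group median as a black bar and the median over all genes as a dashed line. Filled points passed at a limma adjusted p under 0.05, which held for 4 proteasome, 1 Ube2 and 8 Usp genes in degradation rate and for 0 members in synthesis and processing rate.

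The rates of the 2 genotypes were not built alike. In wild type, synthesis divided by degradation gave the same value at both labelling times, within 0.001 log2 units, in 90 of 99 members (90.9%), whereas in the knockout it did so in 0 of 57. Where the wild-type ratio is shared, the wild-type degradation rates differ between times only as synthesis does. Their spread then holds no error of the wild-type RNA level, so the p-values of degradation changes in such genes leave that error out. As the knockout ratio was not shared, a single knockout level and a constant offset between synthesis and decay were solved for each gene from its 2 knockout libraries. The offset divided by the difference between the knockout and the wild-type level had, for processed RNA, a median of 0.911 in proteasome genes (quartiles 0.0715 and 1.28), 0.687 in Ube2 genes (0.300 and 1.24) and 0.920 in Usp genes (0.607 and 1.08), against 0.899 over all genes (0.577 and 1.07). For unprocessed RNA it was 0.981, 1.01 and 0.993, against 0.996. For processed RNA the offset was thus far from the level difference in part of the genes, and its quartiles lay widest apart in the proteasome. How the authors' software set the equation for the knockout is not given in the sources used here.

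Read in this way, a deposited knockout degradation rate holds the difference between the knockout and wild-type levels as well as the decay. The changes recomputed without that difference were small, which the first formula below largely ensures. With the level difference as the offset, the median log2 change was 0.07 for proteasome genes, 0.15 for Ube2 and 0.01 for Usp, against 0.06 over all genes. By limma 0 of the 57 members passed, and 0 of 5704 genes (97 of them, 0 of them members, at an unadjusted p under 0.05). With a level solved from both libraries, the medians were 0.06, 0.07 and 0.01, 0 members passed and 2 of 5670 genes did (0.0353%), and 1 proteasome gene had an unadjusted p under 0.05. Both forms assume the offset they remove. In the first, a rate well below 1 keeps the recomputed level near the wild-type one, as for Psmb5 (13.4 in wild type, 9.81 recomputed at 20 min). Where synthesis changed little, small changes and the lack of calls thus follow largely from the formula. Whether decay itself changed was not tested by it. Under the first, Usp49 kept a log2 change of 1.06, Psmc3ip of 0.92 and Usp35 of 0.65, while Psmb5 had 0.31, Ube2v1 0.17, Usp8 0.10, Psmd11 0.07, Usp10 0.03 and Usp19 -0.02.

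**Figure D5:**
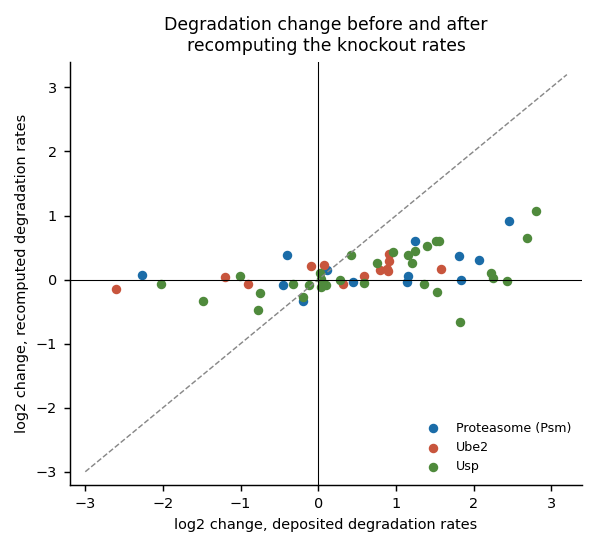
log2 change of the degradation rate for each member tested, from the deposited rates (x axis) and after recomputing the knockout rates with the level difference as the offset (y axis), with the dashed line marking equal values. Most points lie near 0 on the y axis, and Usp49, at 2.80 and 1.06, is the highest.

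The level implied by the deposited rates is synthesis over degradation. As synthesis changed little, it mirrors the degradation rate by arithmetic, and in the knockout it holds the offset described above. From the deposited rates, the ratio of synthesis to degradation of Psmb5 went from 13.4 at both times to 3.16 and 2.69, and that of Usp49 from 6.11 to 1.00 and 1.35. For Psmd11 it went from 29.9 to 159 and 166. With the offset taken out, by the formula that keeps levels near wild type, the log2 differences in level were smaller. They were -0.45 at both times for Psmb5, -0.65 for Usp49, -0.76 for Usp35, -0.38 for Usp10 and 0.11 for Psmd11. The median over proteasome, Ube2 and Usp genes was -0.03, -0.04 and -0.07 at 20 min, against -0.07 over all genes.

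Synthesis rates showed no called change. Of 14 proteasome, 13 Ube2 and 31 Usp genes tested, 0 passed by limma, against a background of 0%. At an unadjusted p under 0.05 there were 0 members and 18 of 5794 genes, and the block by labelling time gave 0 calls as well. Both knockout values lay above both wild-type values in 1 proteasome, 0 Ube2 and 3 Usp genes (background 8.92%) and below them in 2, 0 and 1 (background 9.2%). The median log2 changes were 0.07, 0.03 and -0.08, and each took either sign when 1 library was left out. The largest changes were 0.59 for Psmc3ip (0.473 and 0.579 in wild type, 0.998 and 0.624 in the knockout) and -0.78 for Usp11 (2.14 and 0.398, against 1.12 and 0.258), an X-linked protease whose rates differed more between labelling times than between genotypes. In Ube2 genes the changes ran from -0.11 for Ube2v1 to 0.34 for Ube2a. Synthesis rates of the members ranked alike in both genotypes, with a Spearman rho of 0.887 over 63 genes at 20 min and 0.964 over 61 at 60 min, while degradation rates had 0.217 over 62 and 0.411 over 59. Over all genes the values were alike, 0.884 and 0.971 for synthesis and 0.236 and 0.323 for degradation.

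Processing rates, which measure how fast introns are removed, had negative median changes in all 3 groups and over all genes. The median log2 change was -0.33 in 12 proteasome genes, -0.35 in 11 Ube2 genes and -0.43 in 27 Usp genes, against -0.36 over 5082 genes. In this fit the group medians lay near that of all genes. Centring each library on its median sets the median of all genes near 0 (-0.01), and the group medians were then 0.02, -0.0040 and -0.08. Without the knockout 20 min library the proteasome median was 0.0038 and that of Usp -0.08, while Ube2 had -0.40, against -0.40 over all genes. Both knockout values lay below both wild-type values in 5 proteasome, 3 Ube2 and 9 Usp genes, against a background of 35.1%, and above them in 3, 1 and 3, against 11.5%. By limma 0 passed, against a background of 0%, while 2 proteasome, 1 Ube2 and 2 Usp genes passed at an unadjusted p under 0.05. The block by labelling time called 2 proteasome genes higher and 4 lower, 0 Ube2 genes higher and 2 lower, and 1 Usp gene higher and 4 lower, against a background of 25.6% (6.26% higher and 19.3% lower). With the block and centring together, 2 proteasome and 2 Usp genes were called higher and 0 members lower, against 13.5% (7.14% higher and 6.4% lower). Psmc3ip, Psme3 and Usp49 were called in both of these fits and Usp43 only with centring, while the 10 lower calls were lost. Psmd3 was among those lower calls, with a limma adjusted p of 0.0348 with the block and 0.0863 with centring added.

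The largest processing change of the members tested was that of Psmc3ip, with a rate of 0.749 and 0.916 in wild type but 7.10 and 5.24 in the knockout. The groups did not overlap, and the log2 change of 2.88 (SE 0.427) had an adjusted p of 0.102 by limma. Psme3 had 9.43 and 7.48 against 22.3 and 20.6, a change of 1.35 (adjusted p = 0.228). In the other direction, Psmd3 had 59.4 and 31.7 against 30.4 and 7.78 (change -1.50, adjusted p = 0.415), Ube2q2 had 15.9 and 7.33 against 4.71 and 3.25 (change -1.47, adjusted p = 0.293), and Usp19 had 4.71 and 2.33 against 1.99 and 0.482 (change -1.76, adjusted p = 0.366). Removing the level offset moved these less than it moved the degradation rates: Psmc3ip had 2.24, Psme3 1.24, Psmd3 -1.42 and Usp19 -1.13.

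Other genes of the pathway, from lists of related factors, were called in 0% to 28.6% of those tested for degradation, against the background of 23.1%. Of genes for proteasome assembly, gating and expression outside the Psm names, 7 of 12 had rates and 7 were tested for degradation, of which 28.6% were called. Pomp, the maturation protein of the 20S core, rose (0.106 and 0.0800 in wild type, 0.354 and 0.325 in the knockout, log2 change 1.88, adjusted p = 0.0310 by limma), and Ddi2, a protease that activates NFE2L1, fell (0.260 and 0.165, against 0.0595 and 0.0626, change -1.76, adjusted p = 0.0420). Of genes for ubiquitin and ubiquitin-like proteins, 6 were tested (16.7% called) and Rps27a, a ubiquitin fusion with a ribosomal protein, rose (change 2.45, adjusted p = 0.0269). Among activating enzymes 0 of 4 and among shuttle and segregase factors 0 of 6 were called. Of deubiquitinases outside the Usp family, 17 were tested (5.88% called) and Mysm1, a histone H2A deubiquitinase, rose (change 1.69, adjusted p = 0.0331).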

How the data were processed

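The authors deposited a table of linear synthesis, processing and degradation rates named for INSPEcT per the labels, and limma tables of log2 fold changes, p-values and adjusted p-values per the file headers; their score columns (moderated statistic and log odds) were deposited too and not used. The submitters' processing notes name cutadapt, Bowtie2, TopHat2, HISAT2 and limma, and the builds mm10, dm6 and sacCer3, without versions; fly and yeast RNA were added at 10% each. The count of unused per-sample columns was 0.

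For each rate, genes above 0 in all 4 labelled libraries were log2-transformed without a pseudocount and compared by limma 3.58.1 in R 4.3.3 (lmFit and eBayes, two-sided), with Benjamini-Hochberg adjustment over all genes tested and a threshold of 0.05. Labelling times stood as the replicates. Tables and figures were made in Python 3.11.15 with pandas 2.3.3. Transcript features came from GENCODE M21, and gene positions and promoters from RefSeq on GRCm38.p6 (mm10 is the same assembly). The fit was tested on simulated data: with 200 changed genes and a log2 change of 2, it called 87% of those in the synthesis fit, 83.5% in the processing fit and 95% in the degradation fit. The share of true changes it calls in the deposited rates was not tested. There, degradation changes of more than 2 in size passed for some members and not for others. Psmb5 passed at 2.06 (adjusted p = 0.0286 by limma), and Ube2q1 did not at -2.61 (0.0731).

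Labelling time pairs the libraries by the labels. Over the members, the difference between 60 and 20 min in wild type had a Spearman rho with that in the knockout of 0.714 (synthesis), 0.707 (processing) and 0.749 (degradation). On the log scale the wild-type difference is the same for each rate in most members, since they share a level, so these values are not independent. Named genes were every member called, the 2 largest rises and falls per rate and group, the 2 highest and lowest wild-type means, genes listed by role, and members with rates in 1 genotype; 1 gene named by this rule is not reported here. The members, lists and tests were chosen with earlier results of these data known. Alternatives were centring, quantile normalization, the block, a filter at the 25th percentile, a pseudocount at the 10th percentile (0.0431 for degradation), a trended prior, a threshold of 0.01, the authors' tables, leaving out each library, and knockout rates recomputed over a solved level. Recomputing with the level difference as the offset was chosen after seeing the data.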

Additional observations from a re-analysis of the deposited data

Results flagged for a closer look

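In 7 members the degradation rate in the knockout lay on opposite sides of wild type at the 2 labelling times; the difference between times was not tested. The log2 changes at 20 and 60 min were 0.052 and -0.85 for Psmc6, an ATPase of the 19S cap, and 0.38 and -0.14 for Psmd6, a lid subunit. They were 0.22 and -0.41 for Ube2d3 and 0.28 and -0.14 for Ube2g1. Among Usp genes they were 0.26 and -0.20 for Usp33, 0.24 and -0.18 for Usp42, and -0.57 and 0.78 for Usp53. None of these genes was called in the fit over both times, and each time is a single library per genotype.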

How the results depend on the processing

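Of 318 values for 21 summary results under the alternatives, 245 stayed within 1.5 times the reported count or within the error of the median, and 73 moved. Synthesis calls stayed at 0 members throughout. Synthesis medians stayed within that standard error (0.41 for the proteasome), but leaving out a library changed their sign. They ran from -0.20 to 0.096 (proteasome), -0.20 to 0.25 (Ube2) and -0.21 to 0.21 (Usp). Of the 13 degradation calls, 13 held with the replicate block, the pseudocount and the authors' table, 12 of 12 with low rates left out, 12 with a trended prior, 8 with block and centring, and 1 with centring or quantile normalization.

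Degradation calls, higher then lower: the replicate block gave 7 and 1 (proteasome), 1 and 2 (Ube2), 13 and 3 (Usp); block with centring 2 and 3, 0 and 3, 5 and 6; centring 0 and 1, 0 and 0, 0 and 0; quantile normalization 0 and 1, 0 and 1, 0 and 0 (10.4% of all genes). Low rates left out and a trended prior each gave 0 lower proteasome genes, and the pseudocount gave 1 lower Ube2 gene (32.1%, 28.1% and 33.1% of all genes called). The authors' deposited table gave 6 and 5 of 17, 1 and 1 of 13, 10 and 1 of 32. The 0.01 threshold, the solved level and the level difference as offset each gave 0 throughout. Processing calls, higher then lower, with the block were 2 and 4, 0 and 2, and 1 and 4 (6, 2 and 5 in all), and with block and centring 2 and 0, 0 and 0, and 2 and 0. Processing medians were 0.022, -0.0040 and -0.083 with centring; leaving out a library gave -0.47 to 0.0038, -0.40 to -0.13 and -0.56 to -0.083.

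With centring, with or without the block, the median degradation change for proteasome, Ube2 and Usp genes was 0.29, -0.26 and -0.10, against -0.20 over all genes. With quantile normalization it was 0.29, -0.28 and -0.048, against -0.065. Over the solved level it was 0.063, 0.073 and 0.011, against 0.068, and with the offset 0.071, 0.15 and 0.0086, against 0.057. For the proteasome it was 0.66 with the pseudocount and 0.12 in the authors' deposited table.

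Without the wild-type 60 min, knockout 60 min or knockout 20 min library, 0 members passed (0.0175%, 2.26% and 2.62% of all genes); without the wild-type 20 min library 2 and 1, 0 and 0, and 6 and 0 did (19.5%). So leaving out a library gave 0 to 2 higher and 0 to 1 lower proteasome genes, 0 higher Ube2 and 0 to 6 higher Usp genes, with proteasome medians of 0.61 to 0.91, the lone library being assumed to vary like the others.

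Signs reversed over the solved level for Psmd11 (1.34), Psmg2 (-0.020), Usp10 (-0.14) and Usp28 (-0.20), and with the offset for Psmd11 (0.071), Psmg2 (-0.0099), Usp19 (-0.023) and Usp28 (-0.19). The solved level of Psmd11 rests on nearly equal knockout rates. The cause of these changes was not tested beyond these settings. Depth is unknown, so its limit on single rates cannot be given.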
